A study of Mus musculus with 12 samples.

Results

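The genes described here are 35 genes of the blood vessels that run through the pancreatic islet, measured in RNA of mouse islets on expression arrays. They are genes of endothelial cells, the cells that line vessels, together with the ligands that steer vessel growth. They were chosen by symbol: a gene was taken as measured where a probe set of the array carries its symbol and no other, and where several probe sets did, the one with the highest mean over the 12 arrays was used. All 35 had such a probe set, out of 17097 genes on the array that did. In all, 34 of them passed the filter on dim probe sets (a mean log2 intensity of at least 3.43) and were among the 12825 genes tested. Angpt1 did not pass, with a mean of 3.08.

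Islets of 12-week-old mice on standard chow were profiled in 4 genotypes, with 3 arrays each. WT is the wild type. hIAPP-Tg carries a transgene for human islet amyloid polypeptide, a hormone co-secreted with insulin whose human form can aggregate into amyloid. BACE2-KO lacks beta-secretase 2, a membrane protease of the beta cell, and hIAPP-TgxBACE2-KO combines both changes. The labels give every group the same strain, B6;129P2-Bace2tm1Bdes/J, the wild type included. The labels name no promoter for the transgene and do not say whether the islets of several mice were joined for an array. The p-values below therefore measure the spread between arrays, which may be in part technical. In islet RNA, fewer endothelial cells and less RNA per endothelial cell cannot be told apart.

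Islets are among the most densely vascularised tissues. Beta cells secrete vascular endothelial growth factor A (VEGF-A, Vegfa), which acts on the receptors VEGFR2 (Kdr) and VEGFR1 (Flt1) of the endothelium and keeps islet capillaries fenestrated, with pores closed by diaphragms of PLVAP. The angiopoietins act on the receptor TIE2 (Tek). Angiopoietin 1 stabilises vessels, and angiopoietin 2, made by endothelial cells themselves, mostly opposes it. VE-cadherin (Cdh5), PECAM1, ESAM and claudin 5 hold endothelial cells together. Factors of the ETS family (Erg, Fli1) and the SOXF family (Sox7, Sox17, Sox18) drive the expression of many of these genes.

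A promoter was at hand in RefSeq (assembly GRCm38.p6) for 15 of the 35 genes, with 21 transcription starts. The windows of Eng, Tie1, Egfl7 and Vegfa are shown because they lie upstream of the whole gene and belong to members that varied together over the arrays, as described at the end. Each covers the 250 bases before the start, 5′ to 3′ on the gene's strand. Capitals mark AGGAAG, a core motif of ETS factors, AGATAA, a motif of GATA factors, or ACAAAG, a motif of SOX factors, on either strand (CTTCCT is AGGAAG read on the opposite strand).
Eng, chr2:32646345-32646594, plus strand: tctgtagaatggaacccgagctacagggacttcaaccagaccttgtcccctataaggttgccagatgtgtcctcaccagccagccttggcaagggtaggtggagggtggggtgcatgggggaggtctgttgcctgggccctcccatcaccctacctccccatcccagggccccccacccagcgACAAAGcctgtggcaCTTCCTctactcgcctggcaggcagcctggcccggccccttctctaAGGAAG
Tie1, chr4:118489850-118490099, minus strand: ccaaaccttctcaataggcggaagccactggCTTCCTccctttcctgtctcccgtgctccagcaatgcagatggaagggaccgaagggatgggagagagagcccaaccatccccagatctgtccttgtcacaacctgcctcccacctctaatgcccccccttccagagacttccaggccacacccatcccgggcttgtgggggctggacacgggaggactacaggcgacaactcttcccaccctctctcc
Egfl7, chr2:26580833-26581082, plus strand: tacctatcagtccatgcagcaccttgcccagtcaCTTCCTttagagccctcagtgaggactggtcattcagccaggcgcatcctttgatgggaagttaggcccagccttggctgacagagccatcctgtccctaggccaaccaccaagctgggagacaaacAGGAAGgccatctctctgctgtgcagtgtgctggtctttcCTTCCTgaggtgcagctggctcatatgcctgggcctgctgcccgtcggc
Vegfa, chr17:46032378-46032627, minus strand: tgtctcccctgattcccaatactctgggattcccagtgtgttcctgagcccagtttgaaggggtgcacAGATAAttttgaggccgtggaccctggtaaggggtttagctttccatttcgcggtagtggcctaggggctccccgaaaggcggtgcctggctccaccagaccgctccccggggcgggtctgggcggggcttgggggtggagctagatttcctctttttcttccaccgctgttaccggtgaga
The windows of Eng, Tie1 and Egfl7 hold AGGAAG, and that of Vegfa holds AGATAA. Over the members, AGGAAG was in 9 of 21 windows (42.9%), against 29.5% of all 32851 RefSeq promoter windows of that length. AGATAA was in 3 of 21 (14.3%, against 9.99%), and ACAAAG in 3 of 21 (14.3%, against 16.5%). The longer ETS motif CCGGAAG, which shares only its last 5 letters with AGGAAG, was in 0 of 21, against 6.91% of all windows. A match of letters is a description and shows no binding.

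The 12 endothelial markers used to check the label are themselves members, so they show only that all 12 were measured and above the filter, with array means between 6.27 and 6.86. Of the endothelial genes outside the member list, 50 of 58 had a probe set and 45 were tested, with array means between 5.50 and 5.85. The beta cell transcript Ins2 had group means of 13.97 to 13.99, near the maximum of every array. Bace2 itself did not check the genotypes. Its group means were 11.09 ± 0.16 in WT, 11.00 ± 0.10 in hIAPP-Tg, 10.94 ± 0.08 in BACE2-KO and 10.85 ± 0.17 in hIAPP-TgxBACE2-KO (log2, SD, n = 3), and whether its probes lie in the deleted part of the gene is not known here. Acinar transcripts, from exocrine tissue around the islet, varied most of the marker lists, with array means of 9.40 to 12.06 in WT alone. Of the arrays, hIAPP-Tg replicate 2 was the lowest of the 12 for 19.9% of all tested genes.

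BACE2-KO replicate 2 stood apart in the vessel genes themselves. Its 35 members lay on average 0.41 below their means over the 12 arrays, while the other 11 arrays lay between -0.10 and 0.12. It was below the mean in 32 of 35 members and the lowest of the 12 arrays in 16 of them: Pecam1, Flt1, Tek, Eng, Esam, Emcn, Plvap, Vwf, Sox17, Ptprb, Mmrn2, Cd93, Ecscr, Aplnr, Icam2 and Ednrb. It was the lowest array for 7.61% of all tested genes and below the mean in 46.3% of them. Markers of pericytes, the contractile cells that wrap capillaries, were also low in this array, by 0.48. Its beta cell markers lay 0.13 above, its alpha cell markers 0.26 above and its acinar markers 0.37 above their means, and its macrophage markers 0.08 below. Other lists were low as well: duct markers lay at -0.30, erythroid at -0.22, fibroblast and stellate at -0.19, and platelet and megakaryocyte at -0.07. With the mean of the acinar markers as a covariate, the members' median for BACE2-KO minus WT was -0.15, against -0.16 without the covariate. The part of the other marker lists was not tested. The members' counts for the comparisons that use this array are given below with and without it.

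**Figure D1:**
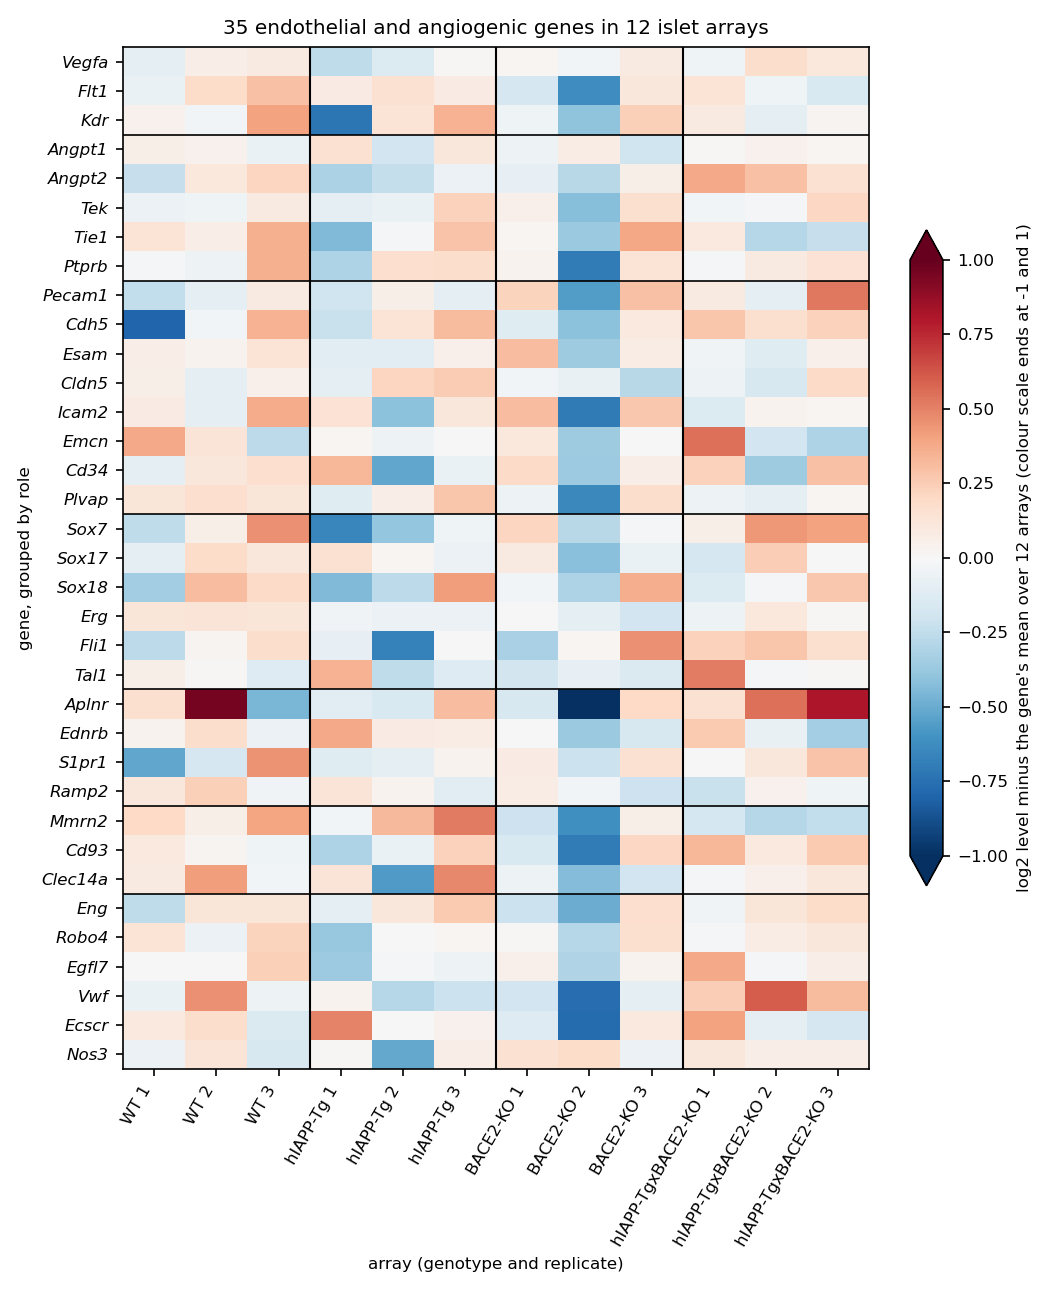
Heat map of the 35 endothelial and angiogenic genes (rows, by role) in the 12 arrays (columns, by genotype), coloured by the log2 level minus the gene's mean over the arrays. The column of BACE2-KO replicate 2 is below the mean in 32 of 35 rows, and no other array shows so uniform a shift.

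hIAPP-Tg replicate 1 was the lowest array in 8 members (Kdr, Tie1, Robo4, Sox18, Sox7, Egfl7, Vegfa and Angpt2) yet the highest in 4 (Cd34, Ecscr, Angpt1 and Ednrb), so its members did not shift as a whole. This array was the lowest for 14.3% and the highest for 12.5% of all tested genes. WT replicate 3 was the highest array in 8 members and hIAPP-Tg replicate 3 in 7, against 7.73% and 7.21% of all tested genes. WT replicate 3 also had the lowest acinar markers, 1.52 below their mean, and WT replicate 1 had the highest, 1.13 above, while their members averaged 0.12 above and 0.04 below.

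**Figure D2:**
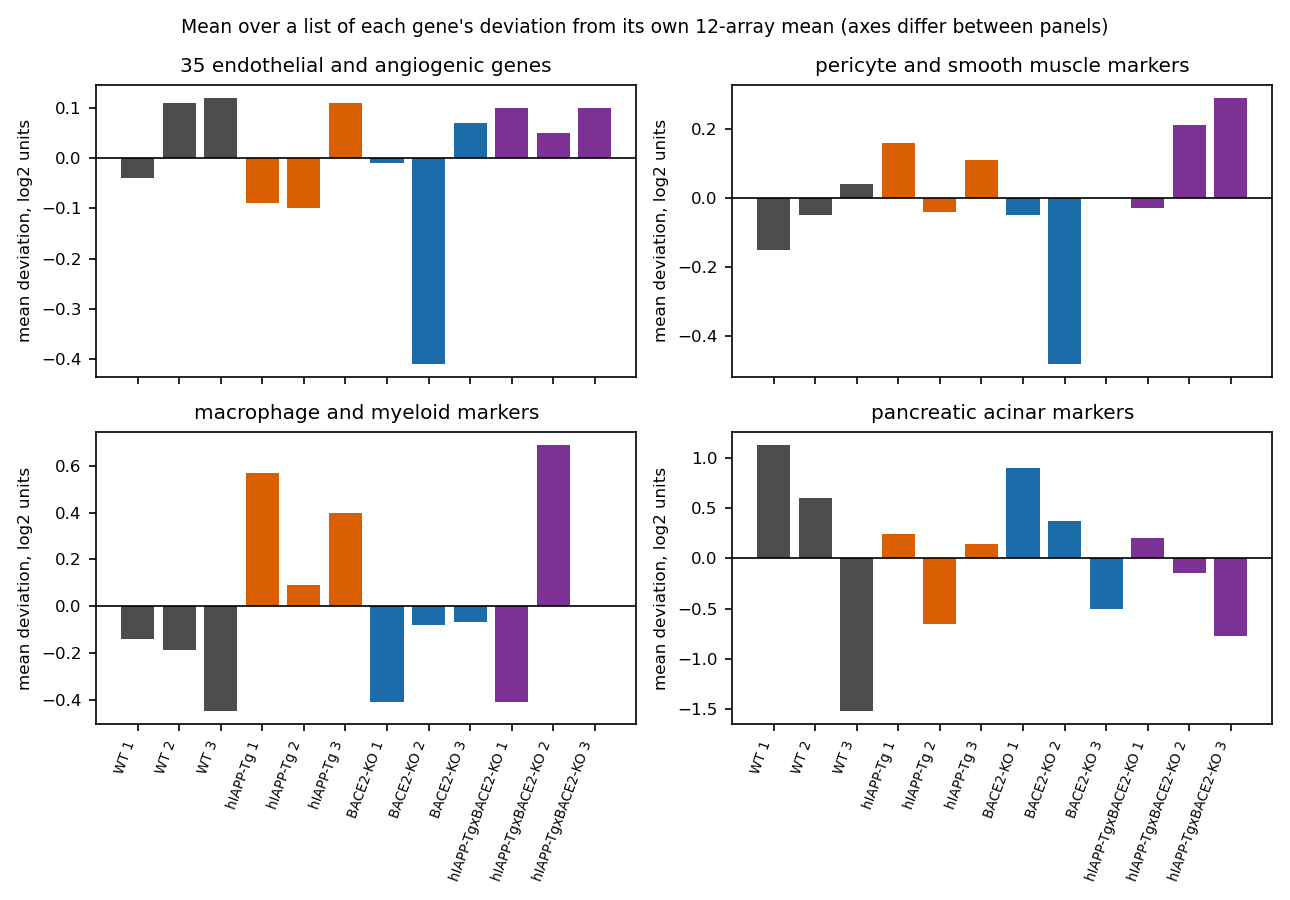
Bars show, for each array, the mean over a list of each gene's log2 level minus its mean over the 12 arrays, for the 35 endothelial and angiogenic genes and for pericyte, macrophage and acinar markers, on axes that differ between panels. The vessel genes and the pericyte markers are both lowest in BACE2-KO replicate 2, and the acinar markers range widely within WT.

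No member passed a Benjamini-Hochberg adjusted p of 0.05 in limma in any of the comparisons. The precision behind that statement is set by the number of arrays: the median half-width of a member's 95% interval (not adjusted for the number of genes) was 0.40 on the log2 scale between genotypes, 0.28 when a factor was averaged over the other, and 0.56 for the interaction. Below, members are taken by role. All levels are log2 intensities of a gene's own probe set and differences are log2 differences. Levels of different genes are not compared, because probe sets differ in brightness.

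Vegfa, the ligand, varied little over the arrays. It read 9.45, 9.61 and 9.64 in WT, 9.29, 9.41 and 9.56 in hIAPP-Tg, 9.57, 9.52 and 9.64 in BACE2-KO, and 9.50, 9.72 and 9.65 in hIAPP-TgxBACE2-KO. All groups overlapped, and the arrays covered a range of 0.43. BACE2-KO differed from WT by 0.01 (95% interval -0.18 to 0.20). The hIAPP-Tg arrays had the lowest mean, 0.15 below WT (adjusted p = 0.95) and 0.20 below hIAPP-TgxBACE2-KO (adjusted p = 0.572 in limma). The latter difference had an unadjusted p under 0.05 in limma. The second probe set of Vegfa differed by 0.06 and 0.01 in the BACE2-KO comparisons without and with the transgene.

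Kdr, the main signalling receptor for VEGF-A, read 8.03, 7.96 and 8.39 in WT and 7.27, 8.13 and 8.34 in hIAPP-Tg. BACE2-KO gave 7.95, 7.59 and 8.23, and hIAPP-TgxBACE2-KO 8.08, 7.90 and 8.02. The groups overlapped, with the lowest value in hIAPP-Tg replicate 1. Flt1, which binds VEGF-A tightly and limits its supply to Kdr, read 7.53, 7.78 and 7.89 in WT, 7.68, 7.75 and 7.68 in hIAPP-Tg, 7.43, 6.97 and 7.71 in BACE2-KO, and 7.73, 7.55 and 7.44 in hIAPP-TgxBACE2-KO. Flt1 was 0.36 lower in BACE2-KO than in WT (SE 0.163, adjusted p = 0.785 in limma), and 0.16 lower without BACE2-KO replicate 2.

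Among the angiopoietins, Angpt1 lay near the floor in every array: 3.14, 3.12 and 3.01 in WT, 3.23, 2.89 and 3.19 in hIAPP-Tg, 3.03, 3.15 and 2.88 in BACE2-KO, and 3.09, 3.12 and 3.10 in hIAPP-TgxBACE2-KO. No difference between groups could be read from it. Angpt2, the antagonist ligand released by endothelial cells, read 6.69, 7.02 and 7.13 in WT, 6.60, 6.68 and 6.86 in hIAPP-Tg, 6.84, 6.64 and 6.98 in BACE2-KO, and 7.30, 7.21 and 7.07 in hIAPP-TgxBACE2-KO. All 3 hIAPP-TgxBACE2-KO arrays lay above all arrays of both hIAPP-Tg and BACE2-KO, and overlapped with WT. Angpt2 was 0.48 higher in hIAPP-TgxBACE2-KO than in hIAPP-Tg (95% interval 0.18 to 0.78, adjusted p = 0.348 in limma), the smallest adjusted p of any member in that comparison. It was 0.37 higher than in BACE2-KO (adjusted p = 0.962) and 0.25 higher than in WT (adjusted p = 0.672). A second, dim probe set of Angpt2 (mean 3.23, under the filter) did not follow, at -0.15 against hIAPP-Tg.

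The receptor Tek read 5.11, 5.13 and 5.26 in WT, 5.07, 5.10 and 5.40 in hIAPP-Tg, 5.22, 4.74 and 5.33 in BACE2-KO, and 5.14, 5.15 and 5.38 in hIAPP-TgxBACE2-KO. Apart from BACE2-KO replicate 2, at 4.74, its values lay within a narrow band shared by all groups. Tie1, its co-receptor, had group means between 3.63 and 3.96. Ptprb, the phosphatase that removes the activating phosphates of TIE2, had means between 6.08 and 6.35.

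**Figure D3:**
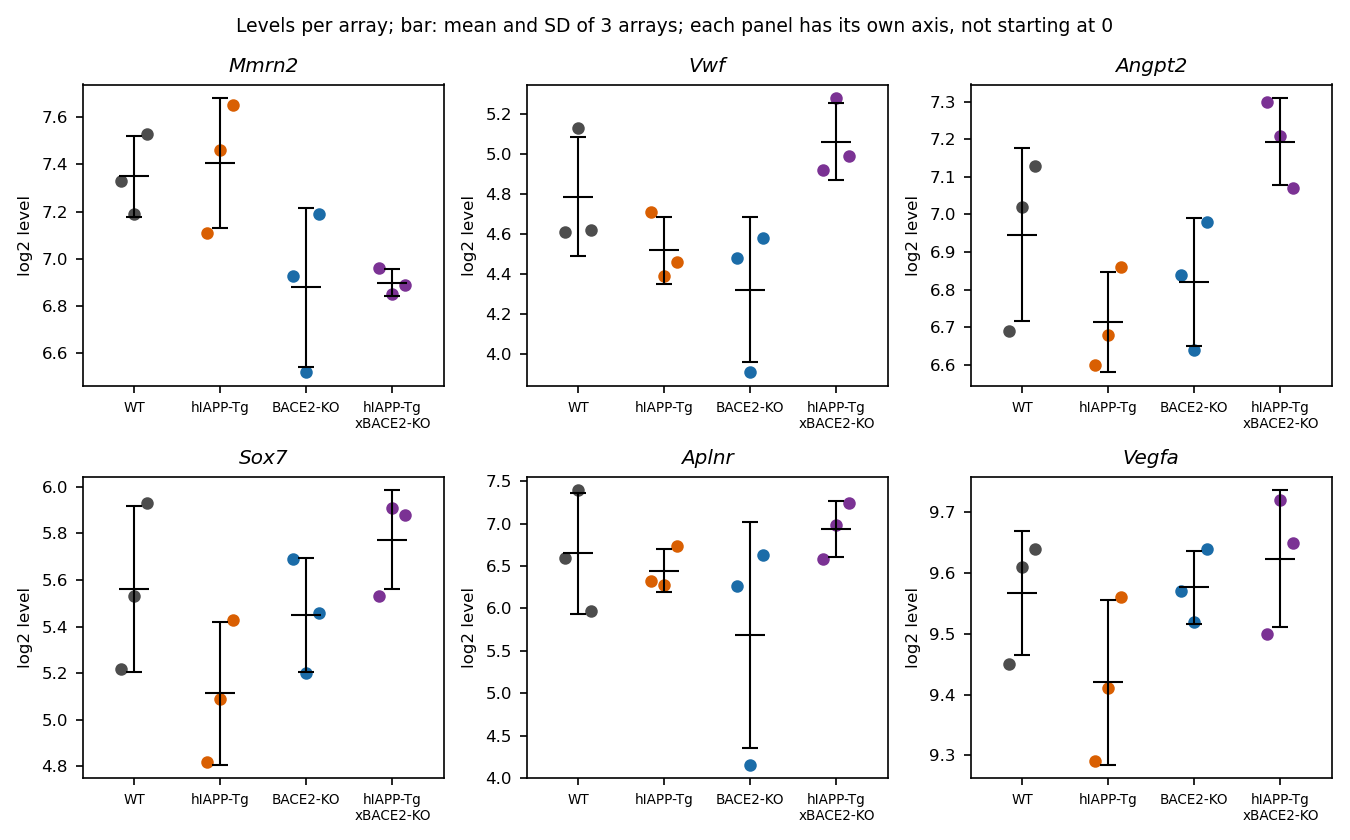
Log2 level in each array (points) and group mean of 6 members with its SD (bars), by genotype, each gene on its own axis that does not start at 0. Mmrn2 is lower in both groups without BACE2, while the highest group means of Vwf, Angpt2 and Sox7 are those of hIAPP-TgxBACE2-KO, and no difference passed the adjusted threshold.

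Of the junction genes, Pecam1, an adhesion molecule of endothelial borders, read 6.36, 6.52 and 6.70 in WT, 6.41, 6.67 and 6.52 in hIAPP-Tg, 6.83, 6.05 and 6.90 in BACE2-KO, and 6.70, 6.52 and 7.14 in hIAPP-TgxBACE2-KO. Its BACE2-KO arrays held values both above and below every WT array. The BACE2-KO minus WT difference was 0.07 (95% interval -0.41 to 0.54), and 0.34 without BACE2-KO replicate 2. Cdh5, the cadherin of endothelial junctions, read 5.76, 6.52 and 6.90 in WT, 6.33, 6.69 and 6.87 in hIAPP-Tg, 6.43, 6.14 and 6.65 in BACE2-KO, and 6.83, 6.71 and 6.78 in hIAPP-TgxBACE2-KO. WT alone covered the whole range of the 12 arrays. With the transgene, averaged over BACE2 status, Cdh5 was 0.30 higher (SE 0.174, adjusted p = 0.692 in limma), and 0.14 higher without WT replicate 1. Plvap, the diaphragm protein of fenestrated capillaries, lay at 8.07, 8.12 and 8.07 in WT and at 7.90, 7.86 and 7.97 in hIAPP-TgxBACE2-KO, without overlap, a difference of -0.18 (adjusted p = 0.816). The hIAPP-Tg arrays, at 7.83, 8.02 and 8.23, and the BACE2-KO arrays, at 7.90, 7.31 and 8.13, overlapped with both. Esam, Cldn5, Icam2, Emcn and Cd34 had group means from 7.82 to 7.95, 4.16 to 4.41, 5.40 to 5.57, 8.89 to 9.05 and 5.89 to 6.04, in that order.

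Mmrn2 encodes multimerin 2, a protein that endothelial cells deposit around vessels and that binds CD93, CLEC14A and VEGF-A. It read 7.33, 7.19 and 7.53 in WT and 7.11, 7.46 and 7.65 in hIAPP-Tg, against 6.93, 6.52 and 7.19 in BACE2-KO and 6.96, 6.85 and 6.89 in hIAPP-TgxBACE2-KO. The hIAPP-TgxBACE2-KO arrays lay below every array with BACE2, while BACE2-KO replicate 3 equalled the lowest WT array. Mmrn2 was 0.47 lower in BACE2-KO than in WT (95% interval -0.85 to -0.09, adjusted p = 0.701), and 0.51 lower in hIAPP-TgxBACE2-KO than in hIAPP-Tg (95% interval -0.89 to -0.13, adjusted p = 0.429 in limma). These comparisons use different arrays. Averaged over both, the difference was -0.49 (SE 0.124, adjusted p = 0.109), the smallest adjusted p of any member in any comparison. Without BACE2-KO replicate 2 the averaged difference was -0.40, and that for BACE2-KO minus WT was -0.29.

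The other probe sets of Mmrn2 gave the same direction: -0.42 and -0.34 for BACE2-KO minus WT, and -0.67 and -0.23 for hIAPP-TgxBACE2-KO minus hIAPP-Tg. Of its binding partners, Cd93, a C-type lectin-like receptor, read 8.02, 7.47 and 8.38 in BACE2-KO against 8.27, 8.20 and 8.13 in WT, and was 0.28 higher in hIAPP-TgxBACE2-KO than in hIAPP-Tg (adjusted p = 0.761). Clec14a, its relative, was 0.38 lower in BACE2-KO than in WT with no overlap (adjusted p = 0.908) and 0.04 higher in hIAPP-TgxBACE2-KO than in hIAPP-Tg (adjusted p = 0.987 in limma).

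**Figure D4:**
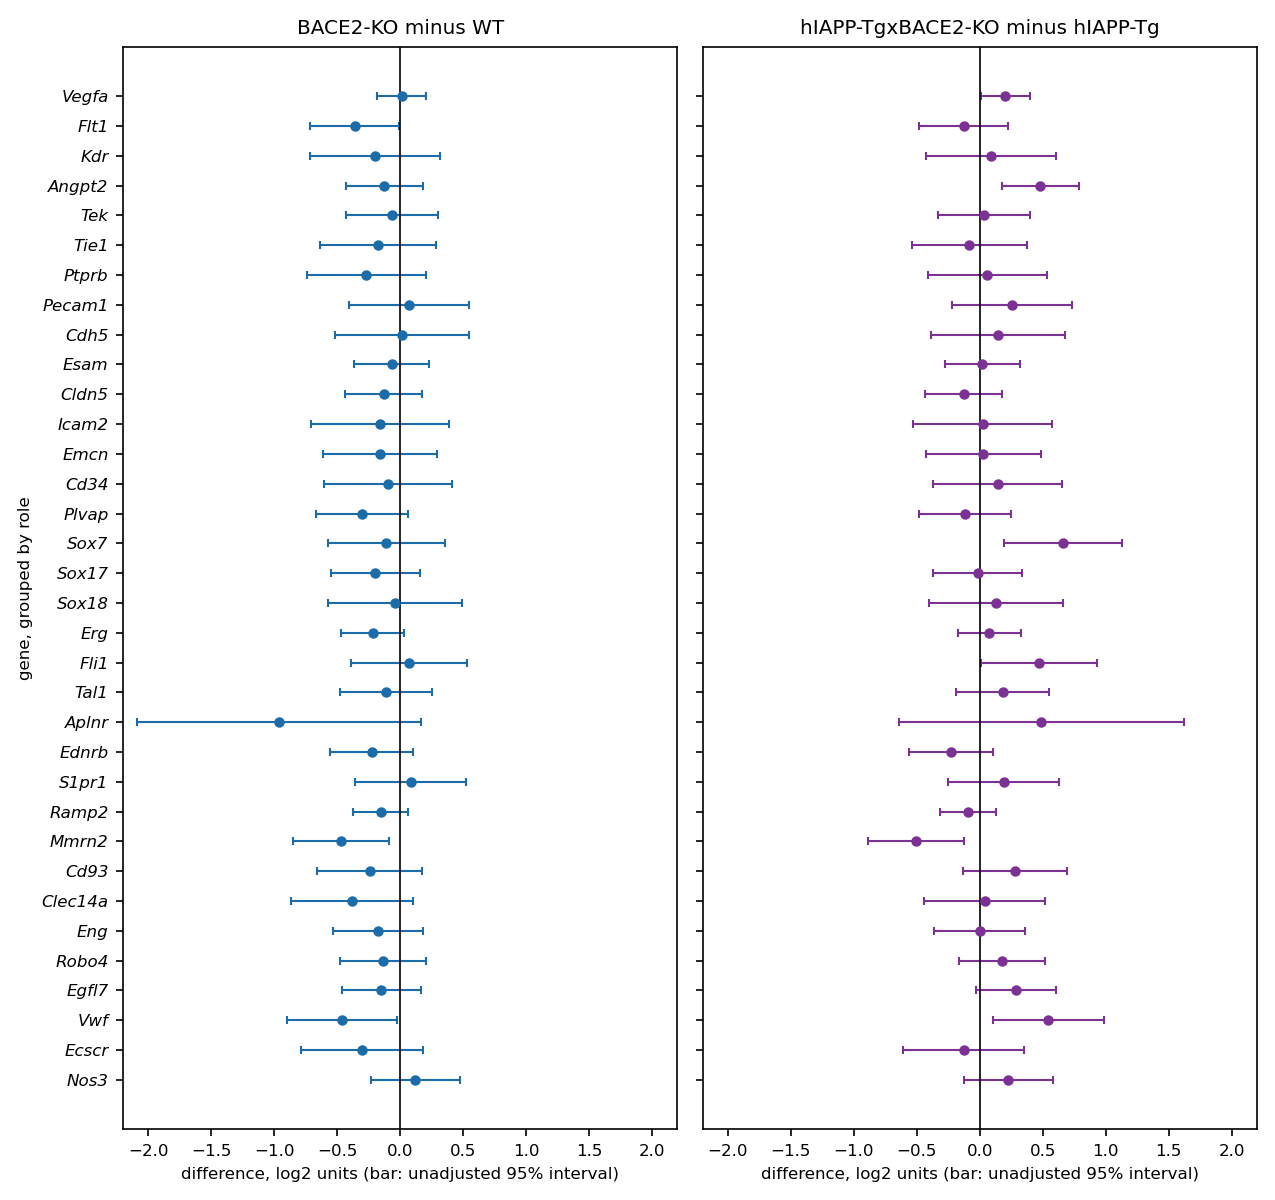
Log2 difference of each tested member for BACE2-KO minus WT and for hIAPP-TgxBACE2-KO minus hIAPP-Tg (points, with unadjusted 95% intervals from limma). Of the 34 members, 28 are below 0 in the first and 10 in the second, and Mmrn2 is near -0.5 in both.

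Among the transcription factors, Sox7 differed most. It read 5.22, 5.53 and 5.93 in WT, 4.82, 5.09 and 5.43 in hIAPP-Tg, 5.69, 5.20 and 5.46 in BACE2-KO, and 5.53, 5.91 and 5.88 in hIAPP-TgxBACE2-KO. The hIAPP-Tg values were all below the hIAPP-TgxBACE2-KO values and overlapped with WT and BACE2-KO. Sox7 was 0.66 higher in hIAPP-TgxBACE2-KO than in hIAPP-Tg (95% interval 0.19 to 1.13, adjusted p = 0.404 in limma) and 0.45 lower in hIAPP-Tg than in WT (adjusted p = 0.95). A dim second probe set (mean 3.09) showed -0.08 in the first of these. Sox17 and Sox18, its relatives with partly overlapping roles in vessels, had group means from 5.48 to 5.68 and from 6.71 to 6.85.

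Erg, a factor that keeps endothelial cells in their differentiated state, had the narrowest spread of the 35. WT read 5.55, 5.56 and 5.55, hIAPP-Tg 5.39, 5.37 and 5.37, BACE2-KO 5.43, 5.33 and 5.24, and hIAPP-TgxBACE2-KO 5.38, 5.53 and 5.44. Every array of the other 3 genotypes lay below every WT array, by group means of 0.18, 0.22 and 0.10. In limma, which moderates each gene's variance towards that of genes of like level, these gave adjusted p = 0.95, 0.87 and 0.846. Erg lies on chromosome 16, as does Bace2, with 12 tested genes between them in RefSeq. Its second, dimmer probe set did not follow in the groups with the transgene, with means of 4.07 in hIAPP-Tg and 3.96 in hIAPP-TgxBACE2-KO against 3.80 in WT. In BACE2-KO its mean was 3.69, also below WT. Fli1 was 0.47 higher in hIAPP-TgxBACE2-KO than in hIAPP-Tg without overlap (adjusted p = 0.584 in limma). It read 4.09, 4.14 and 4.02 against 3.78, 3.19 and 3.87. The second probe set of Fli1 (mean 3.66, against 3.86 for the one used) gave 0.23, with overlap. For hIAPP-Tg minus WT the 2 probe sets differed in sign, at -0.23 for the one used and 0.24. Tal1, a factor of blood and endothelial lineages, had means between 3.47 and 3.77.

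Vwf encodes von Willebrand factor, the clotting protein stored in endothelial granules. It read 4.61, 5.13 and 4.62 in WT, 4.71, 4.39 and 4.46 in hIAPP-Tg, 4.48, 3.91 and 4.58 in BACE2-KO, and 4.92, 5.28 and 4.99 in hIAPP-TgxBACE2-KO. BACE2-KO lay below WT without overlap, and hIAPP-TgxBACE2-KO lay above both BACE2-KO and hIAPP-Tg without overlap. The differences were -0.46 for BACE2-KO minus WT (adjusted p = 0.759), 0.54 for hIAPP-TgxBACE2-KO minus hIAPP-Tg (adjusted p = 0.471) and 0.74 for hIAPP-TgxBACE2-KO minus BACE2-KO (adjusted p = 0.962 in limma). The third of these shares arrays with each of the others. Leaving out BACE2-KO replicate 2 gave -0.26 for the first and 0.53 for the third. The interaction, the effect of BACE2 loss with the transgene minus that without it, was 1.01 (SE 0.286, unadjusted p = 0.00399, adjusted p = 1). Without BACE2-KO replicate 2 it was 0.80. Vwf was measured by 1 probe set.

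Aplnr, the receptor for apelin in sprouting vessels, had the widest range of the 35, 3.23. It read 6.59, 7.39 and 5.97 in WT, 6.32, 6.28 and 6.74 in hIAPP-Tg, 6.27, 4.16 and 6.63 in BACE2-KO, and 6.58, 6.98 and 7.24 in hIAPP-TgxBACE2-KO. The value of 4.16 is that of BACE2-KO replicate 2, and the other 11 arrays lay between 5.97 and 7.39. The hIAPP-TgxBACE2-KO minus BACE2-KO difference of 1.25 (SE 0.521, adjusted p = 0.962 in limma) was 0.48 without it. Ednrb, an endothelin receptor, read 7.74, 7.88 and 7.65 in WT, 8.09, 7.79 and 7.78 in hIAPP-Tg, 7.70, 7.34 and 7.55 in BACE2-KO, and 7.97, 7.63 and 7.37 in hIAPP-TgxBACE2-KO. With BACE2 loss averaged over transgene status it was 0.23 lower (adjusted p = 0.448).

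Ramp2, the partner that turns the calcitonin receptor-like receptor into an adrenomedullin receptor, read 12.35, 12.47 and 12.20 in WT, 12.36, 12.27 and 12.13 in hIAPP-Tg, 12.31, 12.21 and 12.03 in BACE2-KO, and 12.01, 12.28 and 12.19 in hIAPP-TgxBACE2-KO. The groups overlapped, and the hIAPP-TgxBACE2-KO minus WT difference was -0.18 (adjusted p = 0.671 in limma). S1pr1, the sphingosine 1-phosphate receptor that steadies junctions, had group means between 6.58 and 6.79.

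Eng, the TGF-beta co-receptor endoglin, read 7.37, 7.75 and 7.75 in WT, 7.53, 7.74 and 7.89 in hIAPP-Tg, 7.41, 7.13 and 7.79 in BACE2-KO, and 7.59, 7.75 and 7.81 in hIAPP-TgxBACE2-KO. The groups overlapped, and with the transgene it was 0.19 higher averaged over BACE2 status (SE 0.117, adjusted p = 0.702 in limma). Egfl7, a matrix protein secreted by endothelium, was lower in hIAPP-Tg than in WT without overlap (-0.22, adjusted p = 0.95). Its other probe sets overlapped and gave -0.17 and -0.00. The probe set at -0.00 was about as bright as the one used, with a mean of 7.37 against 7.38. Robo4, Ecscr and Nos3, the endothelial nitric oxide synthase, had group means from 5.71 to 5.93, 6.89 to 7.33 and 5.54 to 5.77.

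The comparisons differed in how the members leaned as a list. For BACE2-KO minus WT, 28 of 34 members were lower and 6 higher, with a median of -0.16 against 0.01 over all tested genes, of which 47.1% were lower. None of the 34 passed, against 0.125% of all genes, and 3 members (Mmrn2, Vwf and Flt1, all lower) had an unadjusted p under 0.05, against 6.28% of all genes. BACE2-KO arrays lay below WT without overlap in 3 members (Vwf, Erg and Clec14a), against 6.34% of all genes, and above it in 0, against 6.59%. This lean rests on 1 array: without BACE2-KO replicate 2 the median was -0.03, with 21 members lower, 13 higher and 0 at an unadjusted p under 0.05. Without BACE2-KO replicate 3 instead, the median was -0.21, with 32 lower and 7 at an unadjusted p under 0.05, and without WT replicate 3 it was -0.10.

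For hIAPP-TgxBACE2-KO minus hIAPP-Tg, the same loss with the transgene present, 24 members were higher and 10 lower, with a median of 0.08 against 0.03 over all genes, of which 42.4% were lower. None of the 34 passed, against 0.101% of all genes, and 6 had an unadjusted p under 0.05: Angpt2, Sox7, Vwf, Vegfa and Fli1 were higher and Mmrn2 was lower. Over all genes 8.37% had such a p. The groups did not overlap in 4 members that were higher (Vwf, Sox7, Fli1 and Angpt2) and 1 that was lower (Mmrn2), against 6.56% and 4.57% of all genes. Without hIAPP-Tg replicate 2, 3 members had an unadjusted p under 0.05, and the split was 20 higher to 14 lower. The median was 0.15 without hIAPP-Tg replicate 3 and 0.05 without hIAPP-Tg replicate 2. Averaged over transgene status, 15 members were higher and 19 lower on BACE2 loss, with a median of -0.04, and 44.2% of all genes were lower. None passed, against 0.92% of all genes, and only Mmrn2 had an unadjusted p under 0.05, against 11.4%. The lean turned without BACE2-KO replicate 2, to 21 higher and 13 lower with a median of 0.07, and without hIAPP-Tg replicate 3 the split was 18 higher to 16 lower.

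For hIAPP-Tg minus WT, 24 members were lower and 10 higher, with a median of -0.10 against -0.03 over all genes, of which 58.1% were lower. None passed, against 0.0156% of all genes, and 0 had an unadjusted p under 0.05, against 4.52%. Erg and Egfl7 were lower without overlap, against 5.77% of all genes, and 0 members were higher without overlap, against 3.39%. The median was -0.17, with 2 members at an unadjusted p under 0.05, without hIAPP-Tg replicate 3, and -0.04 without WT replicate 2. In this comparison 12 of 13 tested macrophage markers were higher, with a median of 0.73 and 6 at an unadjusted p under 0.05, and array means of 6.11 to 6.59 against 5.58 to 5.88 in WT. Their part in the members' values was not tested.

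For hIAPP-TgxBACE2-KO minus BACE2-KO, 30 members were higher and 4 lower, with a median of 0.13 against -0.01 over all genes, of which 53.5% were lower. The count passing was 0, against 0% of all genes, and 4 (Vwf, Angpt2, Aplnr and Cd93, all higher) had an unadjusted p under 0.05, against 4.44%. This comparison shares its BACE2-KO arrays with that against WT, and leaving out BACE2-KO replicate 2 gave a median of 0.02, with 20 higher and 14 lower. Cdh5, Vwf, Tal1, Angpt2 and Clec14a were higher without overlap, against 4.09% of all genes, and 0 were lower, against 5.59%. All 11 tested acinar markers were lower in this comparison (median -0.56) and all 6 tested fibroblast and stellate markers were higher (median 0.65). With the acinar covariate the members' median was 0.12, and the part of the fibroblast and stellate markers was not tested. For hIAPP-TgxBACE2-KO minus WT, the members were even: 16 higher and 18 lower, with a median of -0.01, and 50.2% of all genes were lower. None passed, against 0.133% of all genes, and 1 (Mmrn2) had an unadjusted p under 0.05, against 8.43%. Plvap, Erg and Mmrn2 were lower without overlap, against 8.2% of all genes, and 0 were higher, against 6.68%.

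With the transgene averaged over BACE2 status, 20 members were higher and 14 lower (median 0.05), and 57.5% of all genes were lower. None passed, against 0.0078% of all genes, and 0 had an unadjusted p under 0.05, against 7.59%. Without BACE2-KO replicate 2 the median was -0.04, with 12 higher and 22 lower, and without hIAPP-Tg replicate 3 it was -0.01. The interaction was above 0 in 32 of 34 members, with a median of 0.19 against 0.02 over all genes, of which 44.8% were below 0. None passed, against 0.0078% of all genes, and 3 (Vwf at 1.01, Sox7 at 0.77 and Angpt2 at 0.61) had an unadjusted p under 0.05, against 2.4%. Without BACE2-KO replicate 2 the interaction was above 0 in 23 members and its median was 0.06, while without BACE2-KO replicate 3 the median was 0.34 and without WT replicate 1 it was 0.30. In the F test over the 4 genotypes none passed, against 0.179% of all genes, and 3 (Mmrn2, Vwf and Angpt2) had an unadjusted p under 0.05, against 8.26%.

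Genes around the members in the same pathways, taken from lists, gave no gene that passed in limma either. Of the other VEGF ligands and co-receptors, 6 were tested. Pgf, placental growth factor, was 0.46 lower in BACE2-KO than in WT (unadjusted p = 0.0985) and 0.57 lower in hIAPP-TgxBACE2-KO than in hIAPP-Tg (unadjusted p = 0.046). Its group means were 6.65 in WT, 6.69 in hIAPP-Tg, 6.20 in BACE2-KO and 6.12 in hIAPP-TgxBACE2-KO. Vegfc lay between 4.01 and 4.27 and Nrp1, a co-receptor for VEGF-A, between 7.49 and 7.77. Of 10 Notch genes, which set arterial and tip cell fates, 3 were higher and 7 lower in BACE2-KO than in WT, and 4 and 6 without BACE2-KO replicate 2. Jag1 was highest in hIAPP-TgxBACE2-KO, at 5.74 ± 0.27 against 4.93 ± 0.43 in WT (SD, n = 3), Notch1 lay between 7.44 and 7.80 and Dll1 between 6.68 and 7.12.

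Of 8 TGF-beta and BMP genes, which includes the targets Id1, Id3 and Smad6, 8 were higher in hIAPP-TgxBACE2-KO than in BACE2-KO (median 0.34, or 0.20 without BACE2-KO replicate 2, 1 at an unadjusted p under 0.05) and 7 higher than in hIAPP-Tg (median 0.21, 0 at an unadjusted p under 0.05). Against WT, 7 were higher in hIAPP-TgxBACE2-KO (median 0.33), with 3 at an unadjusted p under 0.05: Id1, Id3 and Smad6. Over all genes 4.44%, 8.37% and 8.43% had such a p in these comparisons, in that order. Id1 read 7.27 ± 0.15 in WT, 7.41 ± 0.07 in hIAPP-Tg, 7.16 ± 0.48 in BACE2-KO and 7.76 ± 0.13 in hIAPP-TgxBACE2-KO (SD, n = 3). Id3 had group means between 7.88 and 8.19 and Smad6 between 5.14 and 5.74.

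A further list joined genes of the vascular basement membrane, the sheet on which endothelium rests, with other secreted proteins such as Pdgfb and Adamts1. All 12 tested were lower in BACE2-KO than in WT (median -0.25, 1 at an unadjusted p under 0.05), and 11 of 12 were higher in hIAPP-TgxBACE2-KO than in BACE2-KO (median 0.43, 5 at an unadjusted p under 0.05). Over all genes, 47.1% were lower in the first of these and 53.5% in the second, and 6.28% and 4.44% had such a p. The list mean was 6.22 in BACE2-KO replicate 2, against 6.61 and 6.79 in the other BACE2-KO arrays. Without that array 9 were lower and 3 higher than in WT (median -0.08, 0 at an unadjusted p under 0.05), and the median of hIAPP-TgxBACE2-KO minus BACE2-KO was 0.20, with 1 at such a p. Pdgfb, the endothelial ligand that recruits pericytes, read 6.03 ± 0.27 in WT, 5.79 ± 0.33 in hIAPP-Tg, 5.58 ± 0.20 in BACE2-KO and 6.28 ± 0.24 in hIAPP-TgxBACE2-KO (SD, n = 3). Its interaction was 0.94 (SE 0.285, unadjusted p = 0.00597 in limma) and did not pass after adjustment. The sign is not particular to Pdgfb. The interaction was above 0 in all 12 tested genes of this list, and in 11 without BACE2-KO replicate 2. Lamb1, a laminin chain, and Adamts1, a matrix protease, had group means between 7.68 and 8.28 and between 7.22 and 7.89.

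Pericyte and smooth muscle genes were 3 higher and 7 lower in BACE2-KO than in WT, and 8 higher and 2 lower in hIAPP-TgxBACE2-KO than in BACE2-KO. These counts were 5 and 5, and 7 and 3, without BACE2-KO replicate 2. Pdgfrb, the receptor for PDGF-B on pericytes, read 4.44 ± 0.12 in WT, 4.80 ± 0.22 in hIAPP-Tg, 4.45 ± 0.17 in BACE2-KO and 5.11 ± 0.21 in hIAPP-TgxBACE2-KO (SD, n = 3). It was 0.51 higher with the transgene, averaged over BACE2 status (SE 0.111, adjusted p = 0.644 in limma). Des and Anpep, also pericyte markers, had group means between 4.65 and 5.04 and between 4.46 and 5.18.

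Of 45 other endothelial genes, 31 were lower and 14 higher in BACE2-KO than in WT (median -0.14, 4 at an unadjusted p under 0.05), against 47.1% lower and 6.28% at such a p over all genes. This too rested on BACE2-KO replicate 2, without which 24 were higher and 21 lower, with a median of 0.01. In hIAPP-TgxBACE2-KO, 34 of the 45 were higher than in BACE2-KO (median 0.22), and 33 without that array (median 0.12). Lmo2, a partner of TAL1, had means of 6.31 in WT, 6.53 in hIAPP-Tg, 5.91 in BACE2-KO and 6.34 in hIAPP-TgxBACE2-KO. Sele, the adhesion molecule E-selectin of activated endothelium, was highest in hIAPP-Tg, at 4.04 ± 0.28 against 3.49 ± 0.27 in WT (SD, n = 3, adjusted p = 0.95 in limma). Its means in BACE2-KO and hIAPP-TgxBACE2-KO were 3.43 and 3.59, so outside hIAPP-Tg it lay near the filter level of 3.43. Edn1, endothelin 1, was highest in hIAPP-TgxBACE2-KO, at 6.11 ± 0.47 against 5.23 ± 0.62 in WT (SD, n = 3, adjusted p = 0.401 in limma). Of 5 lymphatic endothelial genes 4 were higher and 1 lower in BACE2-KO than in WT. Lyve1, a hyaluronan receptor, was the lower one, by 0.73 (unadjusted p = 0.0152 in limma), while Reln was 0.77 higher (unadjusted p = 0.0392). Reln had group means between 3.75 and 4.87 and Pdpn between 5.39 and 6.37. Of 12 hypoxia regulators, of which Vegfa is a known target, 10 were higher in BACE2-KO than in WT, with a median of 0.04 and 0 at an unadjusted p under 0.05. Ankrd37, Egln3 and Adm had group means from 6.48 to 6.95, 3.82 to 4.34 and 5.12 to 5.70.

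Within genotypes, many members varied together from array to array. After each group's mean was subtracted, the Pearson correlation of a member with the mean of the other members over the 12 arrays had a median of 0.61, and 22 of 34 exceeded 0.5. Other tested genes had a median of 0.03 against the members' mean, and 7.2% exceeded 0.5. The points share arrays and normalization, and the deviations within a group sum to 0. Without BACE2-KO replicate 2, over 11 arrays, the members' median was 0.39 and 14 exceeded 0.5, and that of other genes was 0.07, with 12.8% over 0.5. The members' median was thus lower without that array and still above that of the other genes.

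Plvap (0.93 with the array and 0.72 without), Tek (0.92 and 0.77), Eng (0.82 and 0.75), Angpt2 (0.75 and 0.78), Sox18 (0.74 and 0.90) and Cdh5 (0.63 and 0.74) stayed high. Others rested on the array: Aplnr went from 0.73 to 0.12, Vwf from 0.56 to -0.04 and Esam from 0.83 to 0.32. Vegfa, which in the islet comes mainly from endocrine cells, correlated at 0.53 and 0.67. Nos3, Cldn5, Erg, Tal1 and Ramp2 lay below 0, Ramp2 the lowest at -0.38. Outside the list, the genes most like the members' mean over the 12 arrays were Adgrl4 (0.92), Gas2 (0.90) and Lingo1 (0.89). Of the marker lists, pericyte markers followed the members' mean at 0.78, and at 0.28 without BACE2-KO replicate 2, while acinar markers gave -0.24 and macrophage markers -0.19. The longer list of pericyte and smooth muscle genes, whose counts are given above, read 0.77 and 0.42 with and without that array. The other endothelial genes read 0.76 and 0.47. Alpha cell markers gave 0.11 and beta cell markers 0.18 over the 12 arrays, and 0.60 and 0.47 without BACE2-KO replicate 2.

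**Figure D5:**
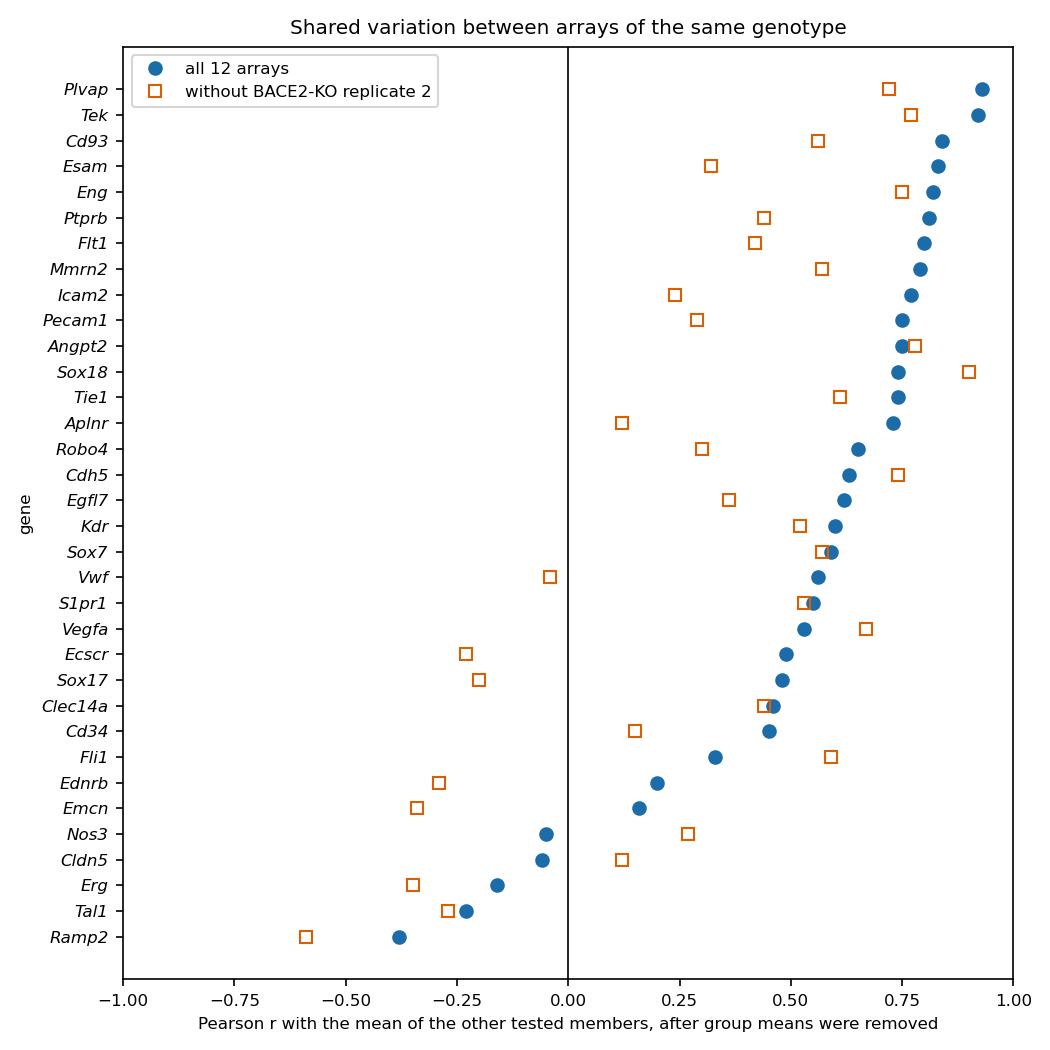
Pearson correlation of each tested member with the mean of the other members, from deviations from group means, on the horizontal axis, over the 12 arrays (circles) and without BACE2-KO replicate 2 (open squares), with 1 row a gene. Plvap, Tek, Eng and Sox18 read 0.72 or more in both, and Ramp2 is below 0 in both.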

How the data were processed

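Per the labels, total RNA of isolated islets from 12 samples was hybridised to Affymetrix mouse arrays, 1 array each. The deposited values are log2 intensities per probe set, and per the submitters' processing notes the authors made them with RMA in affy. The sources used here give neither versions nor a build. Array medians lay between 4.22 and 4.35, and no array was normalized again.

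Of 45141 probe sets, 28898 carried 1 gene symbol, 551 several and 15692 none in the platform's annotation. Each gene was taken from its brightest single-symbol probe set, and genes whose mean was under the 25th percentile (3.43) were left out. limma 3.58.1 in R 4.3.3 fitted 4 group means with eBayes and an intensity trend. P-values were adjusted by Benjamini-Hochberg over 12825 genes, with a threshold of 0.05. The fit was tested on simulated data. Python 3.11.15, pandas 2.3.3 and matplotlib 3.10.9 made the summaries and plots. Promoters came from RefSeq GRCm38.p6.

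The members and all lists were chosen with earlier results of these data known. Values in every array are given for 8 core members and for the 3 members with the smallest unadjusted p in each comparison, and up to 3 genes are named for each related list. Plvap, Cd93, Clec14a, Fli1, Egfl7 and Erg were named further after their values were seen. Alternatives were another filter, other probe set choices, further normalization, array weights, the acinar marker mean as a covariate, no trend, fits of single pairs, a replicate block and leaving out each array. Leaving BACE2-KO replicate 2 out of the related lists was added after seeing the data.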

Additional observations from a re-analysis of the deposited data

Results flagged for a closer look

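In some members every array of a group lay on one side of the mean of its reference group, while every array of the other group lay on the opposite side of its own. The interaction in limma, which tests the difference, gave an adjusted p of 1 for each of them. The share of all tested genes with this pattern was not counted, so the members' number cannot be set against it. On BACE2 loss without the transgene and with it, Vwf differed by -0.46 and 0.54, Erg by -0.22 and 0.07, Egfl7 by -0.15 and 0.29, and Aplnr by -0.96 and 0.49. For Aplnr the BACE2-KO arrays lay between -2.49 and -0.02 from the WT mean, and -2.49 was that of BACE2-KO replicate 2. For the transgene with BACE2 present and without BACE2, Robo4 differed by -0.22 and 0.09, Vwf by -0.27 and 0.74, Sox7 by -0.45 and 0.32, Erg by -0.18 and 0.12, Egfl7 by -0.22 and 0.21, and Angpt2 by -0.23 and 0.37. One array of hIAPP-TgxBACE2-KO was level with the hIAPP-Tg mean for Erg, to the precision of the values. Another probe set of Egfl7, about as bright, gave -0.00 for the transgene with BACE2 present and 0.23 without BACE2. For Erg, the dimmer probe set gave 0.28 for the transgene with or without BACE2, and -0.11 for BACE2 loss with or without the transgene.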

How the results depend on the processing

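No member passed the adjusted threshold in any alternative except Mmrn2 on BACE2 loss averaged over transgene status, where the fit with the replicate block called 1 member, Mmrn2, at -0.49 (adjusted p = 0.0466 in limma, and up to 0.233 over its alternatives). Replicate numbers were not taken to pair the arrays, since the labels do not say that they mark a litter, batch or day. Same-numbered pairs correlated above 0.1 more often, in 10 of 18 (-0.129 to 0.372, median 0.141), against 5 of 36 pairs of other numbers (median -0.0701). What same-numbered arrays may share was not tested. The block changed no other call. Some small differences changed sign. For BACE2-KO minus WT, leaving out 1 array moved Pecam1 between -0.09 and 0.34, Cdh5 between -0.30 and 0.27, Tek between -0.19 and 0.11 and Vegfa between -0.05 and 0.05, array weights gave -0.03 for Cdh5 and -0.00 for Vegfa, and further quantile normalization gave -0.00 for Vegfa. For hIAPP-TgxBACE2-KO minus hIAPP-Tg, leaving out 1 array moved Cdh5 between -0.01 and 0.26, Kdr between -0.23 and 0.30 and Tek between -0.05 and 0.14, array weights gave -0.10 for Kdr, and Tek was -0.05 with further quantile normalization and -0.01 with arrays centred on their medians. The stricter filter, a cut on the mean over the arrays, left out Vwf, Tek and Sox7. With them went the tested members dimmer than Sox7: Icam2, Erg, Cldn5, Clec14a, Fli1, Tie1 and Tal1. Members left out were not tested in that alternative. Fits of single pairs give no averaged or interaction values. The number of arrays, 3 a genotype, limits the precision.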
